A study of Mus musculus with 9 samples.

Results

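The genes that switch off mitogen-activated protein (MAP) kinase signalling after it has been switched on were followed in mouse mammary fibroblasts grown with or without carcinoma cells. The list held 8 genes chosen by name: the dual-specificity phosphatases Dusp1, Dusp4, Dusp5 and Dusp6, the Sproutys Spry1, Spry2 and Spry4, and the Sprouty-related gene Spred1. Of these, 7 were among the 11931 genes of the deposited table and all 7 passed the filter on low values; Dusp5 was not analysed here. The fibroblasts came from the mammary fat pads of female BALB/c mice aged 12 weeks and had rested for 1 week on collagen. They made up 3 groups of 3 libraries each: co-culture with 4T1-GFP cells for 5 days, co-culture with these cells for 3 days, and monoculture for 5 days. 4T1 is a mouse mammary carcinoma line derived from a BALB/c tumour, here labelled with green fluorescent protein (GFP). All 3 groups were sorted before RNA extraction for cells that lacked GFP and carried PDPN, the surface glycoprotein podoplanin, and 3′ end mRNA libraries were sequenced. The 3-day co-culture differed from the monoculture in days of culture as well as in the presence of carcinoma cells, so these cannot be told apart at 3 days. Nothing in the labels says whether replicates were separate cultures or animals, so the p-values measure only the spread between these libraries. The name of 1 column leaves 4T1 cells out; it was assigned by elimination to replicate 2 of the 5-day co-culture, the sole sample that none of the remaining 8 column names fits.

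Growth factor receptors switch on the small G protein Ras, which starts a relay of RAF, MEK and the kinases ERK1 and ERK2; stress signals run through the related kinases p38 and JNK. ERK and its relatives induce genes whose products switch the same relay off. Dual-specificity phosphatases remove the activating phosphates from the MAP kinases themselves, whereas Sprouty and SPRED proteins act further upstream, between the receptor and RAF. In fibroblasts many of these genes respond quickly to serum and growth factors, so their transcript levels are often read beside those of other growth factor-induced genes.

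The promoters of the 3 members that fell in the 5-day co-culture are given first, because they are the stretches in which the known binding letters of MAP kinase-responsive factors would be looked for. Each is the 250 bases before the annotated start, 5′ to 3′ on the strand of the gene, from RefSeq on GRCm38.p6, and capitals mark a cyclic AMP response element (CRE, TGACGTCA). Dusp1 lies at chr17:26508473-26508722 on the minus strand, Spry1 at chr3:37639697-37639946 on the plus strand, and Spry2 at chr14:105896820-105897069 on the minus strand.
Dusp1: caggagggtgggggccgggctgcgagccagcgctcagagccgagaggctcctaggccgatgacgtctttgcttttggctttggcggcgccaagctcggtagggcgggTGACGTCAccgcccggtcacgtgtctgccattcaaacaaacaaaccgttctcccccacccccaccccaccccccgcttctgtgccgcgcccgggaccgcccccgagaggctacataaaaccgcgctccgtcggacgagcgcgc
Spry1: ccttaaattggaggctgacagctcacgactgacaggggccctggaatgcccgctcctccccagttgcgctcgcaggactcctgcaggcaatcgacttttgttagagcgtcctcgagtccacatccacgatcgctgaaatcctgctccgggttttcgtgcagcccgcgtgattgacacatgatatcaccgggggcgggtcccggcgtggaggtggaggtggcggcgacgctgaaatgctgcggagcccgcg
Spry2: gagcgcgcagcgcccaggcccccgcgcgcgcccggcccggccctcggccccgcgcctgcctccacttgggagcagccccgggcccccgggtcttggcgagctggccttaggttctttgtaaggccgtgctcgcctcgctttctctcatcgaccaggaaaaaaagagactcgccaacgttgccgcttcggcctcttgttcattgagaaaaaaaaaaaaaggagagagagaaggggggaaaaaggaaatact

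The Dusp1 stretch held 1 CRE, whose nearest base lay 136 bases before the start. The CRE letters occurred in 508 of 32851 promoters of the same length, or 1.55%. Both strands were searched for the CRE, an AP-1 site (TGANTCA, in 6.75% of promoters), an ETS site (CCGGAAGT, in 2.88%) and the CArG box bound by serum response factor (in 1.47%). None of these letters stood in the Spry1, Spry2, Dusp6 or Spred1 stretches, and the Dusp5 stretch held 2 CArG boxes that overlapped no CRE, AP-1 or ETS match. RefSeq sequences were matched for 6 of the 8 genes, without Dusp4 and Spry4. A match of letters describes the sequence and is no measured binding site.

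Reads in genes numbered 1459381 to 1987168 in the 5-day co-cultures, 1048471 to 2579766 in the 3-day co-cultures and 2623911 to 3567326 in the monocultures. Values below are the authors' normalised counts, on which 1 read was worth between 0.481 and 1.66 units. All 12 listed fibroblast markers were in the table, and their summed level ranged from 39564 to 53753.9 in the 5-day co-cultures, from 44399.4 to 55637.3 in the 3-day co-cultures and from 46226.6 to 63829.4 in the monocultures. Of these 12, 1 rose and 6 fell at 5 days, and 0 rose and 5 fell at 3 days, where 24.0% and 20.0% of all genes passed. Their median log2 fold change was -1.36 at 5 days and -0.12 at 3 days. Epithelial and carcinoma markers moved with the groups. The 17 of 20 in the table summed to between 1124.3 and 1566.6 in the 5-day co-cultures, 1151.5 and 1332.8 in the 3-day co-cultures, and 56.1 and 85.9 in the monocultures, where Cldn3 and Elf3 were at 0. Of the 15 tested, 14 rose at each day, where 12.6% of all genes rose at 5 days and 10.6% at 3 days. A marker could pass the filter on low values through the co-cultures alone, which favours rises among those tested. The single adipocyte marker in the table of 6 listed, Fabp4, had 9.0 to 16.2 in the 5-day co-cultures, 5.0 to 22.3 in the 3-day co-cultures and 93.5 to 145.2 in the monocultures. Mural markers (6 of 8 in the table) summed to 267.3 to 282.2 in the 5-day co-cultures, 195.7 to 269.0 in the 3-day co-cultures and 126.0 to 202.4 in the monocultures. The part of these markers in the results below was not tested. In bulk RNA, fewer cells of a type and less RNA per cell cannot be told apart.

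Against monoculture, the 5-day co-culture showed lower Dusp1, Spry1 and Spry2 and higher Dusp4, while Dusp6, Spry4 and Spred1 did not pass the test. By limma's moderated test with Benjamini-Hochberg adjustment over all 10639 genes tested and a threshold of 0.05, 1 of 7 members rose and 3 fell, where 24.0% of all genes passed (12.6% higher and 11.4% lower). Their median log2 fold change was -1.13, beside -0.01 over all genes tested, and -0.67 without replicate 3 of the monoculture. At 3 days 1 member rose (Dusp4) and 2 fell (Dusp1 and Spry1), where 20.0% of all genes passed (10.6% higher and 9.37% lower), and the members' median was -0.47 beside 0.00 over all genes. That 3-day median rested on single libraries: it was -0.07 without replicate 3, -0.73 without replicate 2 and -0.68 without replicate 1 of the monoculture, and -0.23, -0.30 and -0.93 without replicates 1, 2 and 3 of the 3-day co-culture. Values of the 3 libraries of a group lay wholly below those of the monoculture for 4 members at 5 days (20.1% of all genes) and for 3 members at 3 days (18.1%). They lay wholly above for 1 member at 5 days (20.8% of all genes) and for 0 at 3 days (19.2%). The comparisons at 3 and 5 days share the 3 monoculture libraries.

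**Figure D1:**
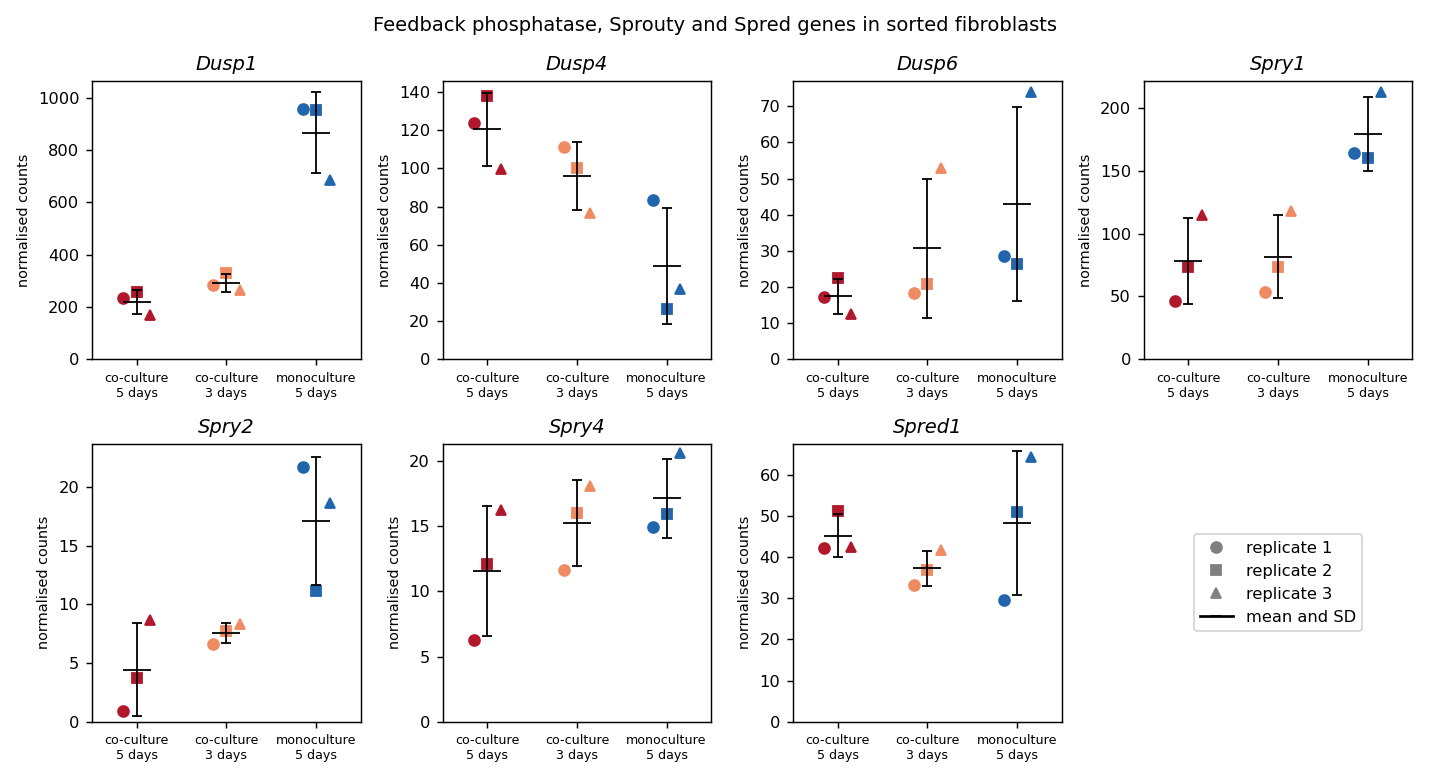
Normalised count of each of the 7 measured members (vertical axis, a scale of its own per gene) in each of the 9 libraries, with the 5-day co-culture in red, the 3-day co-culture in orange and the monoculture in blue; circles, squares and triangles are replicates 1, 2 and 3, and bars give the mean and SD. All 6 co-culture libraries lie below all 3 monoculture libraries for Dusp1, Spry1 and Spry2.

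Dusp1 encodes MKP-1, a nuclear phosphatase that acts on p38, JNK and ERK and is itself an early response gene; GENCODE M21 places it on chromosome 17 at 26505590 to 26562128 of mm10, on the minus strand, a longer gene that includes the RefSeq promoter given above. On the normalised count scale it had 234.5, 255.2 and 168.5 in the 5-day co-cultures, 284.0, 330.0 and 263.0 in the 3-day co-cultures, and 956.8, 955.1 and 686.4 in the monocultures. Every co-culture library was below every monoculture library, and every 5-day library was below every 3-day library. Mean levels were 219.4 ± 45.3 in the 5-day co-culture, 292.3 ± 34.3 in the 3-day co-culture and 866.1 ± 155.6 in the monoculture (SD, n = 3 each). Relative to monoculture the level fell by 1.98 on the log2 scale at 5 days (SE 0.20, limma adjusted p = 2.3e-06) and by 1.55 at 3 days (SE 0.20, limma adjusted p = 4.7e-05). Both calls held in each of the 21 alternatives run. The 5-day minus 3-day difference of -0.43 on the log2 scale (95% interval -0.85 to -0.0046) did not pass, with a limma adjusted p of 0.22. Among 7364 genes with a mean of at least 20, the log2 levels most like those of Dusp1 over the 9 libraries were those of Csgalnact1 (Pearson r = 0.991) and Flot1 (r = 0.986), given as a description of libraries that share the 3 groups.

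Dusp4 encodes MKP-2, another nuclear phosphatase, which acts on ERK and JNK; it lies on chromosome 8 at 34807297 to 34819894, on the plus strand. It moved the other way, with 124.0, 137.8 and 99.9 in the 5-day co-cultures, 111.3, 100.2 and 76.5 in the 3-day co-cultures, and 83.6, 26.4 and 36.6 in the monocultures. All 5-day libraries were above all monoculture libraries, but replicate 1 of the monoculture, at 83.6, lay above replicate 3 of the 3-day co-culture. The means were 120.6 ± 19.2 in the 5-day co-culture, 96.0 ± 17.8 in the 3-day co-culture and 48.9 ± 30.5 in the monoculture (SD, n = 3 each). The log2 fold change over monoculture was 1.44 at 5 days (SE 0.32, limma adjusted p = 0.0037) and 1.11 at 3 days (SE 0.32, limma adjusted p = 0.022). The 5-day call held in each alternative run. The 3-day call was lost on leaving out replicate 1 or 2 of the 3-day co-culture (limma adjusted p = 0.071 and 0.073) or replicate 2 or 3 of the monoculture (0.11 and 0.083), and in the fit of only those 2 groups (0.051). Between 5 and 3 days the difference was 0.33 on the log2 scale, with a 95% interval of -0.35 to 1.01. Monoculture replicate 1, the highest of its group in Dusp4, had the lowest summed epithelial marker level of all 9 libraries (56.1). Both co-cultures had higher sums and higher mean Dusp4 than the monoculture. The log2 levels most like those of Dusp4 were those of Irx3 (r = 0.973) and Zdhhc14 (r = 0.972) over the 9 libraries.

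Dusp6 encodes MKP-3, a cytoplasmic phosphatase specific for ERK and a widely used readout of ERK activity; it lies on chromosome 10 at 99263231 to 99267489, on the plus strand. Its values were 17.1, 22.4 and 12.5 in the 5-day co-cultures, 18.3, 20.9 and 52.9 in the 3-day co-cultures, and 28.5, 26.4 and 73.9 in the monocultures. The 5-day libraries lay below all monoculture libraries, whereas the 3-day libraries overlapped both, and replicate 3 stood well above the other two libraries in the 3-day co-culture and in the monoculture. The means were 17.3 ± 5.0 in the 5-day co-culture, 30.7 ± 19.3 in the 3-day co-culture and 42.9 ± 26.8 in the monoculture (SD, n = 3 each). Its log2 fold change over monoculture was -1.13 at 5 days (SE 0.43, limma adjusted p = 0.065) and -0.47 at 3 days (limma adjusted p = 0.48). On reads recovered from the values, the 5-day difference passed by edgeR's quasi-likelihood test (log2 fold change -1.29, adjusted p = 0.042) and by DESeq2 (-1.31, adjusted p = 0.029). Without monoculture replicate 3 the limma value was -0.67 (adjusted p = 0.31). The limma adjusted p was under the threshold without replicate 3 of the 3-day co-culture (0.031) or replicate 2 of the monoculture (0.044), and in the fit of only the 2 groups (0.044). At 3 days the value ran from -0.93 without replicate 3 of the 3-day co-culture to -0.0042 without replicate 3 of the monoculture, with no call. Tm2d1 (r = 0.900) and Wdfy3 (r = 0.891) had the log2 levels most like it.

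Sprouty proteins are induced by growth factors and restrain the Ras to ERK relay below receptors such as those for fibroblast growth factor; Spry1 lies on chromosome 3 at 37639947 to 37644598, on the plus strand. It had 46.7, 73.6 and 114.9 in the 5-day co-cultures, 53.1, 73.8 and 118.3 in the 3-day co-cultures, and 164.6, 160.5 and 213.4 in the monocultures. No co-culture library reached a monoculture library, and replicate 3 was the highest of its group in all 3 groups. Mean levels were 78.4 ± 34.4 in the 5-day co-culture, 81.7 ± 33.3 in the 3-day co-culture and 179.5 ± 29.4 in the monoculture (SD, n = 3 each). The level fell by 1.27 on the log2 scale at 5 days (SE 0.31, limma adjusted p = 0.0074) and by 1.19 at 3 days (SE 0.31, limma adjusted p = 0.012). The 3-day call was lost without replicate 1 of the 3-day co-culture (limma adjusted p = 0.059) or replicate 3 of the monoculture (0.057). Between 5 and 3 days the difference was -0.08, with a 95% interval of -0.74 to 0.58 and a limma adjusted p of 0.92. Tacc1 (r = 0.987) and Hoxa10 (r = 0.978) had the most similar log2 levels.

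Spry2 lies on chromosome 14 at 105891947 to 105896819, on the minus strand, and encodes the Sprouty best known for tying up adaptor and ubiquitin ligase proteins at activated receptors. Its counts were few: it had 0.9, 3.7 and 8.7 in the 5-day co-cultures, 6.6, 7.7 and 8.3 in the 3-day co-cultures, and 21.7, 11.1 and 18.6 in the monocultures. These values rest on 12 reads in the 5-day co-cultures, 21 in the 3-day co-cultures and 87 in the monocultures, summed over the libraries of each group. Both co-cultures lay below the monoculture without overlap, although they overlapped each other. Relative to monoculture the level fell by 1.99 on the log2 scale at 5 days (SE 0.51, limma adjusted p = 0.0097), with means of 4.43 ± 3.95 and 17.1 ± 5.5 (SD, n = 3 each) in the 5-day co-culture and the monoculture. Without replicate 1 of the 5-day co-culture, which held 1 read of Spry2, the fall was by 1.38 (limma adjusted p = 0.043). The 3-day mean was 7.53 ± 0.86 (SD, n = 3), and its difference from monoculture of -1.04 on the log2 scale (95% interval -2.13 to 0.04) did not pass. Between 5 and 3 days the difference of -0.94 did not pass either (limma adjusted p = 0.30). Myrf (r = 0.945) and Slit3 (r = 0.943) had the most similar log2 levels.

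Spry4, a further Sprouty on chromosome 18 at 38586247 to 38601415 on the minus strand, did not pass in any comparison. It had 6.3, 12.1 and 16.2 in the 5-day co-cultures, 11.6, 16.0 and 18.1 in the 3-day co-cultures, and 14.9, 15.9 and 20.6 in the monocultures. The groups overlapped throughout, and replicate 3 was again the highest in each. Its log2 fold change over monoculture was -0.61 at 5 days (limma adjusted p = 0.25) and -0.17 at 3 days (limma adjusted p = 0.79). Without replicate 1 of the 5-day co-culture the 5-day value was -0.26, and it was -0.88 without replicate 3. Nod1 and Birc5 had the most similar log2 levels (r = 0.962 for each).

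Spred1, on chromosome 2 at 117121374 to 117182279 on the plus strand, encodes a membrane-bound Sprouty relative that brings the Ras-inactivating protein neurofibromin to the membrane. Its values were 42.2, 51.2 and 42.4 in the 5-day co-cultures, 33.2, 36.9 and 41.7 in the 3-day co-cultures, and 29.7, 51.0 and 64.3 in the monocultures. The monoculture libraries spread beyond the co-cultures at both ends, and the 5-day libraries were all above the 3-day ones. Spred1's log2 fold change over monoculture was -0.03 at 5 days (95% interval -0.61 to 0.55) and -0.30 at 3 days (limma adjusted p = 0.48); the 5-day minus 3-day difference was 0.27 (limma adjusted p = 0.61). Pak1 (r = 0.920) and Mfap3 (r = 0.861) had the most similar log2 levels.

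Between the co-cultures 0 of 7 members passed, where 6.91% of all genes did (3.20% higher and 3.71% lower). At an unadjusted limma p under 0.05 the count was 1, Dusp1, and edgeR and DESeq2 on the recovered reads also called 0. Dusp1 was the member wholly lower at 5 than at 3 days (12.9% of all genes) and Spred1 the member wholly higher (11.7% of all genes). The order of mean levels was monoculture above 3-day above 5-day co-culture for Dusp1, Dusp6, Spry1, Spry2 and Spry4, and the reverse for Dusp4. By the limma adjusted p over all genes tested, the 5-day minus 3-day difference passed for none of these 6.

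**Figure D2:**
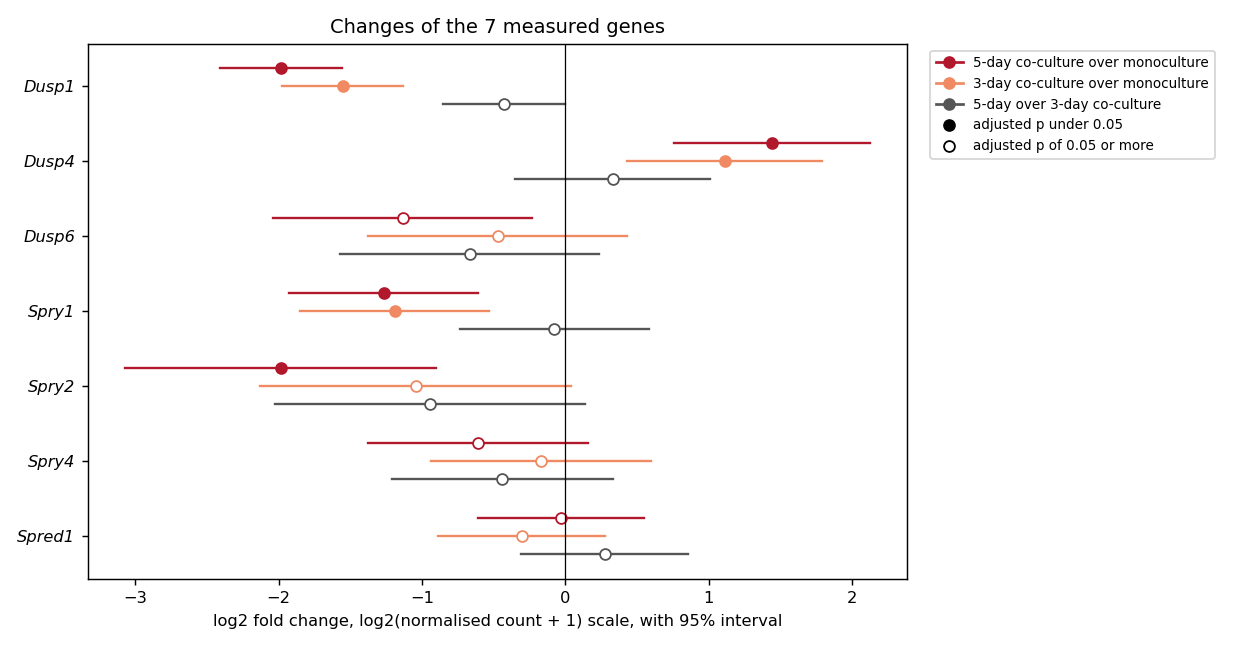
Log2 fold change (horizontal axis) of each member from Dusp1 at the top to Spred1 at the bottom, with 95% intervals, for 5-day co-culture over monoculture, 3-day co-culture over monoculture and 5-day over 3-day co-culture; filled points have a limma adjusted p under 0.05. Dusp4 is the member to the right of 0 in both comparisons with monoculture, and no point is filled between 5 and 3 days.

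The members were set beside the summed epithelial markers library by library. Dusp4 was 137.8, 124.0 and 99.9 at epithelial sums of 1124.3, 1277.8 and 1566.6 in the 5-day co-cultures. It was 100.2, 111.3 and 76.5 at 1151.5, 1273.5 and 1332.8 in the 3-day co-cultures. In the monocultures it was 83.6, 26.4 and 36.6 at 56.1, 78.9 and 85.9. Mean Dusp4 and the sums were both higher in the co-cultures than in the monocultures. Dusp1 was lower in libraries with a higher sum within each group: 255.2, 234.5 and 168.5 at sums of 1124.3, 1277.8 and 1566.6 in the 5-day co-cultures, 330.0, 284.0 and 263.0 at 1151.5, 1273.5 and 1332.8 in the 3-day co-cultures, and 956.8, 955.1 and 686.4 at 56.1, 78.9 and 85.9 in the monocultures. Each group holds 3 libraries, and the monoculture values of 956.8 and 955.1 nearly coincided. Dusp4 fell in the same order in the 5-day co-cultures only. Spry1 and Spry2 showed no such order within the 5-day or 3-day co-cultures. What part carcinoma cells left after the sort had in these values was not tested.

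**Figure D3:**
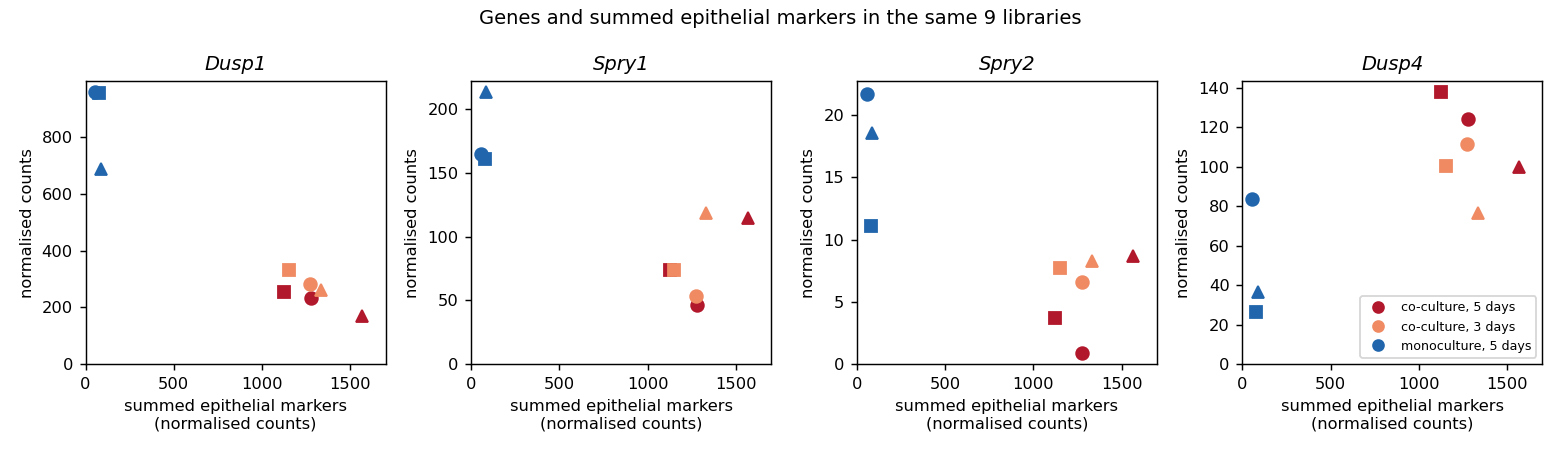
Normalised count of Dusp1, Spry1, Spry2 and Dusp4 (vertical axes) against the summed normalised count of the epithelial and carcinoma markers (horizontal axis) in each of the 9 libraries, coloured by group as in the plot of members by library. The monocultures lie at sums of 56.1 to 85.9 and the co-cultures at sums of 1124.3 to 1566.6, with no library between them.

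Of the other dual-specificity phosphatases listed, those that passed in the comparisons with monoculture rose, as Dusp4 did. The list also holds small atypical phosphatases, and of those that rose Dusp3, Dusp14, Dusp18 and Dusp19 are of that kind. Of 14 listed, 12 were tested; at 5 days 5 rose and 0 fell (6 and 1 at an unadjusted limma p under 0.05, 5 and 0 by edgeR and by DESeq2), and at 3 days 4 rose and 0 fell (6 and 0 unadjusted, 4 and 0 by edgeR and by DESeq2), where 24.0% and 20.0% of all genes passed. The list's median log2 fold change was 0.72 at 5 days and 0.62 at 3 days. The 5-day count of rises was 3 without replicate 3 of the 5-day co-culture and after thinning all libraries to the reads of the shallowest. Dusp23 passed as lower at 5 days without replicate 2 of the 5-day or replicate 3 of the 3-day co-culture. Dusp9, a cytoplasmic phosphatase that prefers ERK, had 23.4, 21.4 and 28.7 in the 5-day co-cultures, 21.6, 13.9 and 19.5 in the 3-day co-cultures, and 6.2, 2.9 and 5.1 in the monocultures. It passed the filter on low values through the co-cultures, and its log2 fold change over monoculture was 2.19 at 5 days (limma adjusted p = 0.00022) and 1.78 at 3 days (0.0017). Dusp14, a small atypical phosphatase also called MKP-6, had 110.5, 111.8 and 58.7 in the 5-day co-cultures, 89.7, 83.5 and 86.3 in the 3-day co-cultures, and 22.3, 21.1 and 43.1 in the monocultures. No co-culture library of Dusp9 or Dusp14 overlapped the monocultures, and Dusp14 rose by 1.68 at 5 days (limma adjusted p = 0.00055) and by 1.63 at 3 days (0.00097) on the log2 scale. Dusp18 rose at both days (log2 fold change 1.06 at 5 days, limma adjusted p = 0.011, and 1.20 at 3 days, 0.0060), as did Dusp19 (0.97, 0.0069, and 0.83, 0.020), and Dusp3 rose at 5 days (0.63, 0.030). These smaller calls were less firm, with limma adjusted p-values above the threshold in some alternatives. That of Dusp18 at 5 days was 0.057 without replicate 3 of the 5-day co-culture and 0.056 after thinning. That of Dusp19 at 3 days was 0.055 to 0.077 without replicate 2 or 3 of the 3-day co-culture or of the monoculture, and 0.064 after thinning. That of Dusp3 was 0.081 to 0.11 without replicate 1 or 3 of the 5-day co-culture or replicate 2 or 3 of the monoculture, and 0.17 after thinning. Between 5 and 3 days limma called 0 of the 12, where 6.91% of all genes passed. At an unadjusted limma p under 0.05 the count was 1 lower, and edgeR and DESeq2 called 0.

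Genes listed under ERK-dependent transcription went both ways, as the members did. The list includes transcription factors such as Srf and Elk1, and dependence of its genes on ERK was not measured here. Of 36 listed, 34 were tested. At 5 days 10 rose and 11 fell, and at 3 days 9 rose and 11 fell (24.0% and 20.0% of all genes passed). Between 5 and 3 days 2 were higher and 6 lower, where 3.20% of all genes were higher and 3.71% lower. The 2 higher became 0 without replicate 1 or 3 of the 5-day or replicate 2 of the 3-day co-culture, 1 without replicate 2 of the 5-day or replicate 1 or 3 of the 3-day co-culture, and 4 without replicate 2 of the monoculture. The list's median log2 fold change was -0.02 at 5 days and -0.03 at 3 days, near that of all genes. The 5-day count of rises was 6 without replicate 3 of the 5-day co-culture or replicate 2 of the monoculture. Zfp36, which encodes the mRNA decay protein tristetraprolin, had 48.5, 82.9 and 58.7 in the 5-day co-cultures, 114.6, 102.3 and 83.5 in the 3-day co-cultures, and 479.0, 575.4 and 629.9 in the monocultures. That is a fall by 3.15 on the log2 scale at 5 days (limma adjusted p = 4.7e-08) and by 2.48 at 3 days (1e-06). Nr4a1, an orphan nuclear receptor induced early by growth factors, had 354.0, 530.9 and 402.0 in the 5-day co-cultures, 911.7, 1070.6 and 741.6 in the 3-day co-cultures, and 2875.4, 2534.1 and 2345.3 in the monocultures. Nr4a1 fell in both co-cultures against monoculture and passed between the co-cultures too, with a 5-day minus 3-day difference of -1.08 on the log2 scale (limma adjusted p = 0.0032), as did the early response gene Ier2 (-1.08, 0.0011). Fos, a component of AP-1 chosen here after its values were seen, fell by 2.95 at 5 days (limma adjusted p = 1.8e-07) and by 2.33 at 3 days (3.6e-06).

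**Figure D4:**
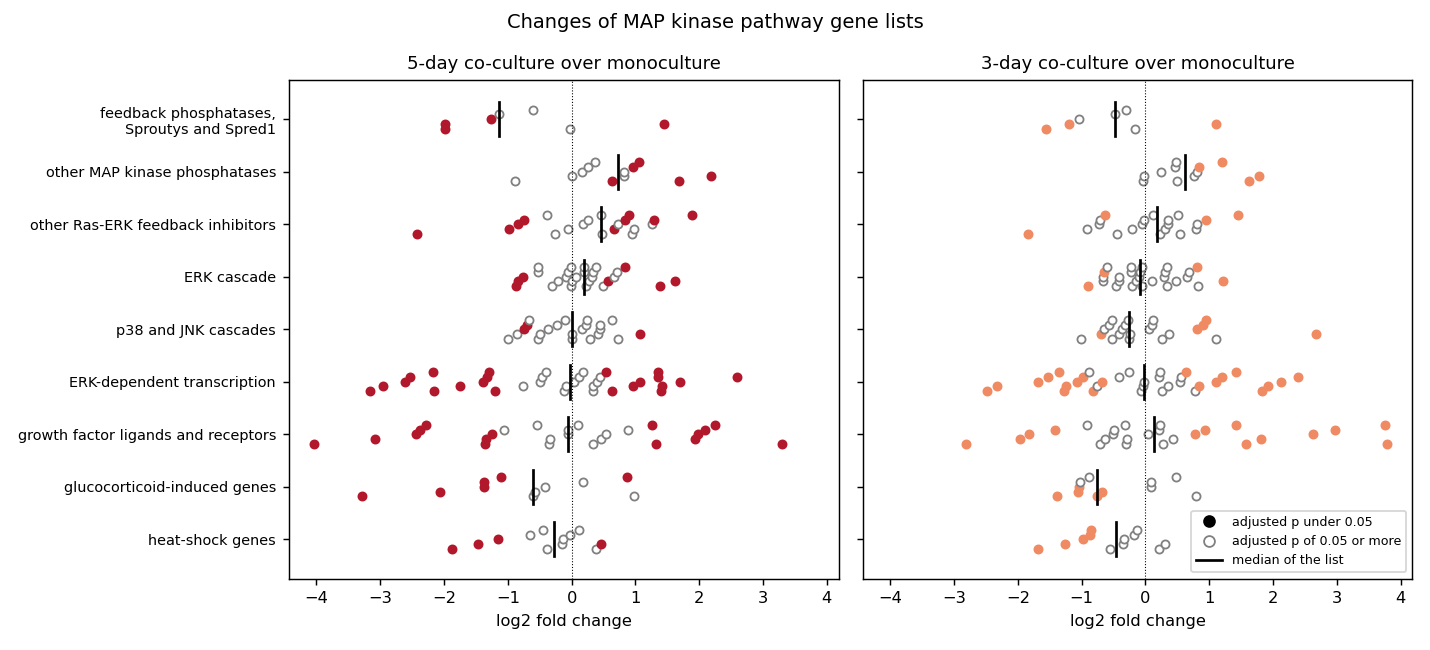
Log2 fold change (horizontal axis) of every tested gene in the members and the 8 other lists, 1 point per gene, for 5-day co-culture over monoculture on the left and 3-day co-culture over monoculture on the right; filled points have a limma adjusted p under 0.05 and black bars mark list medians. The members' medians stand at -1.13 and -0.47 and those of the other phosphatases at 0.72 and 0.62.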

How the data were processed

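Gene expression was measured in 9 libraries. Per the submitters' processing notes, bcl2fastq, STAR 2.4.2a and HTSeq were used with mm10; annotation and strand setting are not given in the sources used here. The authors deposited normalised counts, a signal: read counts scaled by a library factor and rounded. Whole reads were recovered by that step (99.9% to 100% of values whole within 0.051); 18 gene names had become dates, and no column belonged to another sample.

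Genes reaching 5 in 3 or more libraries were tested on log2(value + 1) with limma 3.58.1 in R 4.3.3 (trend, two-sided), all 9 libraries in 1 fit. Fold changes on this scale understate those of low genes. The members and lists were chosen with earlier results of these data known. The rule named each member, up to 3 called genes of each list per comparison by adjusted p (or its highest gene), the 2 genes most like each member, and the 2 highest markers of each list, of which the text names a selection. Alternatives were other pseudocounts, filters and scalings, a replicate block, 2-group fits, edgeR 4.0.16 and DESeq2 1.42.0 on recovered reads (2736 and 2550 genes called at 5 days, 2239 and 2049 at 3 days, 677 and 738 between them), thinning, and leaving out each library. Scripts were tested on simulated data. Reads are not independent molecules. Gene positions (mm10) were taken from GENCODE M21, which matched 8 of 8 members; a CArG box here is its usual consensus by name.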

Additional observations from a re-analysis of the deposited data

How the results depend on the processing

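Over 21 alternatives, 414 of 435 values of single members kept their direction and their side of the threshold, 7 lost the call, 6 gained it and 8 turned round. Under other filters, a replicate block, 2-group fits and without a library outside the comparison, the fold change could not move. There only the side of the threshold could change. The losses were those of Dusp4 and Spry1 at 3 days and the gains that of Dusp6 at 5 days; the cause was not tested. Leaving out 1 library at a time gave 1 to 3 members called at 3 days, with 1 without replicate 1 of the 3-day co-culture or replicate 3 of the monoculture. Values that turned round were near 0 and uncalled: Spred1 at 5 days was 0.0079 after quantile normalization and -0.34 to 0.21 on leaving out 1 library, Spry4 at 3 days -0.30 to 0.0039, and Spry1 between 5 and 3 days -0.40 to 0.25. A filter on a mean of at least 20 left Spry2 and Spry4 untested. Whether replicate numbers pair the samples is not known. Deviations of same-numbered libraries correlated between -0.11 and 0.23 and those of other libraries between -0.30 and 0.32, which cannot settle it. For Spry1 a replicate block lowered the limma adjusted p to 0.00092 at 3 days and 0.00042 at 5 days. With a replicate block 3 members were called at 3 days, 5 at 5 days (with Dusp6) and 0 between 5 and 3 days, and 2663 genes in all at 5 days, 2219 at 3 days and 827 between them. Over all genes, the 735 calls between 5 and 3 days became 463 after thinning to 1048471 reads and 323 without replicate 2 of the 3-day co-culture, 442, 426 and 458 without replicates 1, 2 and 3 of the 5-day co-culture. Spry2 and Spry4 rest on 12 to 89 reads a group, which limits their precision.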

Other observations

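Among the genes listed under ERK-dependent transcription, of which the falls of Zfp36, Nr4a1 and Fos were described, several rose. Lif, a cytokine of the interleukin-6 family, had 843.7, 910.9 and 1468.2 in the 5-day co-cultures, 1536.1, 1924.1 and 1623.6 in the 3-day co-cultures, and 258.7, 315.3 and 406.2 in the monocultures (log2 fold change 1.69, limma adjusted p = 3.6e-05, at 5 days and 2.39, 1.9e-06, at 3 days). Phlda1, a pleckstrin homology-domain gene, rose by 1.35 at 5 days (limma adjusted p = 5.6e-05) and by 1.92 at 3 days (2.7e-06). The stress-response factor Atf3 passed at 3 days (log2 fold change 2.13, limma adjusted p = 6.5e-05) and differed by -1.68 between 5 and 3 days (0.0021). Etv4, an ETS factor often read beside Dusp6 and Spry4 and named here after its values were seen, rose by 1.36 at 5 days (limma adjusted p = 0.0025) and by 1.20 at 3 days (0.0069), with 211.1, 162.1 and 196.0 in the 5-day co-cultures, 224.2, 135.7 and 158.6 in the 3-day co-cultures, and 75.5, 44.2 and 115.7 in the monocultures.

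Of 31 listed genes of the ERK cascade 27 were tested; 4 rose and 3 fell at 5 days, where 24.0% of all genes passed, and 2 rose and 2 fell at 3 days, where 20.0% did, shares near or below the background. After thinning 2 rose at 5 days and 1 at 3 days. The 5-day count of rises was 2 without replicate 2 of the 5-day co-culture, replicate 2 of the monoculture or replicate 3 of the monoculture, the 3-day count of rises was 1 without replicate 2 of the 3-day co-culture or of the monoculture, and the 3-day count of falls was 1 without any one of replicates 2 and 3 of the 3-day co-culture or of the 3 monocultures. Mapk3, which encodes ERK1, had 210.2, 152.7 and 174.8 in the 5-day co-cultures, 240.8, 227.6 and 150.3 in the 3-day co-cultures, and 359.6, 288.4 and 312.4 in the monocultures. Every co-culture library was below every monoculture library, and Mapk3 fell by 0.84 on the log2 scale at 5 days (limma adjusted p = 0.0075) and by 0.66 at 3 days (0.034). The 3-day call was lost without replicate 3 of the 3-day co-culture (limma adjusted p = 0.15) or replicate 1 or 3 of the monoculture (0.11 and 0.081). Rps6ka1, which encodes the ERK-activated kinase RSK1, had 25.2, 20.5 and 30.0 in the 5-day co-cultures, 23.2, 25.1 and 11.1 in the 3-day co-cultures, and 10.5, 7.7 and 5.1 in the monocultures (log2 fold change 1.61, limma adjusted p = 0.0044, at 5 days and 1.22, 0.028, at 3 days). Its 5-day call was lost after thinning (0.055), and its 3-day call after thinning (0.057), in the fit of only those 2 groups (0.056), and without replicate 1 or 2 of the 3-day co-culture (0.082 and 0.12) or replicate 2 or 3 of the monoculture (0.062 and 0.12). Of the adaptor and G protein genes, Shc1 fell at 5 days (-0.88, limma adjusted p = 0.0053) and Rras rose at both days (0.57, 0.030, and 0.81, 0.0048). The 5-day call of Rras was lost under quantile normalization (0.056), after thinning (0.091), and without replicate 1 or 2 of the 5-day co-culture (0.091 and 0.14) or replicate 2 or 3 of the monoculture (0.11 and 0.069).

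Of 23 genes listed as other inhibitors of Ras to ERK signalling, 20 were tested. The list also holds Shoc2, which is no inhibitor of it. Among the 20 tested, 5 rose and 4 fell at 5 days, and 2 rose and 2 fell at 3 days (24.0% and 20.0% of all genes passed). After thinning 1 rose and 3 fell at 5 days, and 0 rose and 1 fell at 3 days. Leaving out 1 library gave 3 to 6 rises and 2 to 4 falls at 5 days, with 3 rises without replicate 2 or 3 of the 5-day co-culture or replicate 1 of the monoculture, and 2 falls without replicate 1 or 2 of either of these groups. At 3 days it gave 0 to 2 rises, with 0 without replicate 3 of the 3-day co-culture or replicate 1 of the monoculture, 1 without replicate 1 of the 3-day co-culture or replicate 2 or 3 of the monoculture. Falls at 3 days numbered 1 without replicate 2 of the 3-day co-culture or replicate 1 or 2 of the monoculture, and 4 without replicate 3 of the monoculture. Socs3, an inhibitor of cytokine receptor signalling, had 62.0, 68.9 and 66.2 in the 5-day co-cultures, 76.4, 153.8 and 83.5 in the 3-day co-cultures, and 362.1, 382.1 and 332.3 in the monocultures. It fell by 2.43 on the log2 scale at 5 days (limma adjusted p = 1.4e-06) and by 1.84 at 3 days (4.1e-05). Rasa2, a GTPase-activating protein that inactivates Ras, rose by 1.88 at 5 days (limma adjusted p = 0.0043) and by 1.45 at 3 days (0.025); its calls at both days were lost after thinning, and the 3-day call without replicate 3 of the 3-day co-culture (0.10) or replicate 1 or 3 of the monoculture (0.077 and 0.059). Trib1, a pseudokinase that binds MEK, fell at 5 days (-0.84, limma adjusted p = 0.0021). The calls of Pebp1 at 5 days (0.84, limma adjusted p = 0.017) and Rasa3 at 3 days (-0.63, 0.033) were lost on leaving out single libraries. That of Pebp1 was lost without replicate 2 of the 5-day co-culture (0.096) or replicate 1 of the monoculture (0.078). That of Rasa3 was lost without replicate 1 or 2 of the 3-day co-culture (0.098 and 0.094) or of the monoculture (0.096 and 0.11). The Rasa3 call was also lost after thinning (limma adjusted p = 0.16).

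In the p38 and JNK cascades, with 22 tested of 26 listed, 1 rose and 2 fell at 5 days, and 4 rose and 1 fell at 3 days, where 24.0% and 20.0% of all genes passed, so neither share stood well above the background. Falls at 5 days numbered 0 without replicate 3 of the 5-day co-culture and 1 without any one monoculture, and rises at 3 days numbered 2 without replicate 2 of the 3-day co-culture or of the monoculture. Falls at 3 days numbered 0 without replicate 2 or 3 of the 3-day co-culture, and 2 without replicate 1 of the 3-day co-culture, replicate 3 of the 5-day co-culture or replicate 2 of the monoculture. Gadd45a, a stress-induced activator of the kinases above p38 and JNK, had 327.0, 287.8 and 427.0 in the 5-day co-cultures, 1084.4, 1038.6 and 992.0 in the 3-day co-cultures, and 172.1, 183.6 and 133.7 in the monocultures. It rose by 1.08 at 5 days (limma adjusted p = 0.00051) and by 2.67 at 3 days (9.6e-08), and the 5-day minus 3-day difference of -1.60 also passed (0.00015). Mapk8ip3, a JNK scaffold gene, rose at 3 days (0.91, limma adjusted p = 0.0020). Map2k4, a kinase that activates JNK, had log2 fold changes of -0.75 at 5 days (limma adjusted p = 0.024) and -0.70 at 3 days (0.038). Its 5-day call was lost without replicate 3 of the 5-day co-culture or replicate 2 or 3 of the monoculture (0.086 to 0.10), and its 3-day call without any one 3-day co-culture or replicate 2 or 3 of the monoculture (0.063 to 0.15).

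Growth factor ligands and receptors, which start the signalling that the phosphatases and Sproutys end, went both ways, with 26 tested of 34 listed: 7 rose and 8 fell at 5 days, and 9 rose and 4 fell at 3 days (24.0% and 20.0% of all genes passed). The 5-day count of falls was 5 without replicate 3 of the 5-day co-culture and among genes with a mean of at least 20. Fgf18, a fibroblast growth factor, had 225.5, 174.2 and 173.5 in the 5-day co-cultures, 136.2, 137.1 and 146.1 in the 3-day co-cultures, and 46.4, 35.6 and 36.0 in the monocultures, a log2 fold change of 2.25 at 5 days (limma adjusted p = 4.9e-07) and 1.81 at 3 days (8.2e-06). Fgf10 went the other way, with 1.8, 2.8 and 5.0 in the 5-day co-cultures, 10.0, 25.8 and 15.3 in the 3-day co-cultures, and 61.9, 60.6 and 72.6 in the monocultures (-4.04, limma adjusted p = 1.1e-06, and -1.96, 0.0016). Of the platelet-derived growth factor receptors, Pdgfra fell by 3.07 at 5 days (limma adjusted p = 2.6e-07) and by 1.82 at 3 days (8.7e-05), and Pdgfrb by 1.34 (9.9e-05) and 1.42 (8.1e-05). Fgf21, a hormone-like member induced by stress, was highest at 3 days, with 25.2, 32.6 and 32.5 in the 5-day co-cultures, 197.6, 213.7 and 116.9 in the 3-day co-cultures, and 10.5, 13.5 and 10.3 in the monocultures (5-day minus 3-day difference -2.47, limma adjusted p = 8.6e-05).

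Dusp1 is also induced by glucocorticoids and by heat shock, so those lists were read beside it. Of 11 tested glucocorticoid-induced genes of 12 listed, 1 rose and 5 fell at 5 days, and 0 rose and 5 fell at 3 days (1 and 6 at an unadjusted limma p under 0.05; 0 and 5 by edgeR and by DESeq2), where 24.0% and 20.0% of all genes passed. Without replicate 2 of the monoculture 3 fell at each day, and without replicate 2 of the 3-day co-culture 3 fell at 3 days. The rise at 5 days was of Fkbp5, a target used to read glucocorticoid activity; 0 rose after thinning, and 2 rose without replicate 1 of the 5-day co-culture, replicate 3 of the 3-day co-culture or replicate 3 of the monoculture. Fkbp5, and Hspe1 among the heat-shock genes, were named after their values were seen, and Errfi1 stands both here and among the inhibitors of Ras to ERK signalling. The glucocorticoid list also holds Nr3c1, the gene of the receptor itself, and induction of its genes by glucocorticoids was not measured here. The clock gene Per1 had 35.0, 17.7 and 30.0 in the 5-day co-cultures, 54.8, 43.2 and 33.4 in the 3-day co-cultures, and 110.8, 106.2 and 124.0 in the monocultures (log2 fold change -2.06, limma adjusted p = 3.6e-05, and -1.38, 0.0018). The kinase gene Sgk1 fell at both days (-1.37, limma adjusted p = 7.5e-05, and -0.75, 0.011, or 0.064 without replicate 3 of the monoculture), the metallothionein Mt1 at 3 days (-1.05, 0.0082) and Cebpd, a transcription factor listed at 0 in replicates 2 and 3 of the 5-day co-culture, at 5 days. Of 12 tested heat-shock genes of 13 listed, 1 rose and 3 fell at 5 days, and 0 rose and 5 fell at 3 days (0 and 6 at an unadjusted limma p under 0.05; 0 and 5 by edgeR and by DESeq2), with the same shares of all genes. The 5-day count of falls was 5 under quantile normalization, after thinning, by edgeR and by DESeq2. The rise at 5 days, of the chaperonin gene Hspe1, was lost under median-of-ratios, TMM and quantile scaling, with a replicate block, after thinning and by edgeR. It was also lost on leaving out any one of 7 libraries: each 5-day co-culture, replicate 2 of the 3-day co-culture or each monoculture. The 3-day count of falls was 3 without replicate 3 of the 3-day co-culture or replicate 1 of the monoculture. The inducible chaperone gene Hspa1b had 24.3, 39.1 and 35.0 in the 5-day co-cultures, 34.9, 28.5 and 51.5 in the 3-day co-cultures, and 133.7, 100.9 and 131.8 in the monocultures (-1.88, limma adjusted p = 7.1e-05, and -1.68, 0.00029). Hsph1 fell at both days (-1.47, limma adjusted p = 0.00019, and -1.26, 0.00095) and Bag3 at 3 days (-0.98, 0.00054). Hspa1a and Hspa1b are near-identical, so their counts are uncertain.

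The other marker lists gave few genes: 6 of 12 immune markers were in the table, summing to 67.3 to 150.0 in the 5-day co-cultures, 122.9 to 351.6 in the 3-day co-cultures and 96.5 to 266.4 in the monocultures, and 2 of 9 endothelial markers, summing to 27.0 to 30.7 in the 5-day co-cultures, 34.7 to 41.7 in the 3-day co-cultures and 25.5 to 28.3 in the monocultures.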
